A study of Oryza sativa Indica Group with 5 samples.

Results

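The heat shock proteins described here are 8 rice loci: 4 class I small heat shock proteins, a further small heat shock protein, the disaggregase HSP101 and a pair of HSP90 chaperones. They were chosen by locus name, and 7 of the 8 had a probe, among 48857 loci on the array. The class I locus LOC_Os03g16020 had none and is not described further. The 7 loci were read by 8 probes, since LOC_Os03g14180 had 2, and all 8 probes were well above background on all 5 arrays. The arrays carry locus names only, so the protein classes are those of the list drawn up for this work and of general knowledge of rice genes. LOC_Os03g14180 is known in rice as a chloroplast small heat shock protein, so the description cytosolic holds for the other members and not for it.

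Small heat shock proteins bind proteins that are unfolding and hold them in a soluble state without using ATP. HSP101, the cytosolic member of the ClpB family, threads proteins out of aggregates with the help of HSP70, and HSP90 completes the folding of regulatory proteins. Their genes are switched on by heat shock factors, and in many plants small heat shock proteins and HSP101 also accumulate in seeds during maturation without any heat treatment.

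RNA came from developing seed of Indica rice taken 16 days after flowering, with 1 single-colour array for each of 5 accessions. Plants were kept in a glasshouse, untreated, with days of 29 °C and nights of 21 °C. The high-amylose group holds 3 accessions with haplotype 8, and the waxy group, whose starch has little or no amylose, holds 2 accessions with haplotype 4. Each array is another accession and no accession was measured again, so the spread behind each p-value is that between accessions, genetic and technical together.

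Array brightness, taken as the 75th percentile of processed intensity, was 183, 108 and 88.8 for high-amylose replicates 1, 2 and 3, and for the waxy replicates it was 203 and 212. Both waxy arrays were scanned on 1 date and high-amylose replicates 2 and 3 on another, and no date held both groups, so the effects of group and of scan date cannot be told apart. Waxy (LOC_Os06g04200), the amylose synthase gene, had a log2 signal of 7.96 to 8.46 in the high-amylose accessions and 3.70 on waxy replicate 2. It stood at 8.21 on the array labelled waxy replicate 1, which on this measure resembled the high-amylose arrays, so the differences of the 7 heat shock loci and the medians of the related lists are also given without it. Every comparison of one waxy array with the other rests on it. The 6 measured starchy endosperm markers, mostly storage protein genes, were well above background on all arrays. In bulk seed, fewer cells of a type and less RNA per cell cannot be told apart.

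The labels and design text set high-amylose against waxy seed, and none of the 7 heat shock loci passed the test for a difference between these groups. Of the 7, 4 had a mean above and 3 a mean below that of waxy seed (46.1% of all loci lay below), with a median log2 difference of 0.01, against 0.03 over all 28923 loci tested. Differences ran from -0.66 to 0.45 on the log2 scale, always as high-amylose minus waxy. None passed (limma with Benjamini-Hochberg adjustment over all loci, adjusted p = 1.00 for each), and 0 of 7 had an unadjusted p under 0.05. Without the array labelled waxy replicate 1 all 7 lay below 0, at a median of -0.28, and without waxy replicate 2 the median was 0.29 with 5 above. Each of these fits leaves 1 waxy array. The median of all loci was 0.00 without waxy replicate 1 and 0.07 without waxy replicate 2, which applies also to the related lists below. The share of all loci below 0 in these fits was not counted. With all 5 arrays, 0.0277% of all loci passed the adjusted threshold of 0.05 and 3.40% had an unadjusted p under 0.05. At 6 of the 7 loci the range over the 3 high-amylose accessions was wider than the difference between the group means. The share of all loci where this held was not counted, so it does not set the 7 loci apart.

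**Figure D1:**
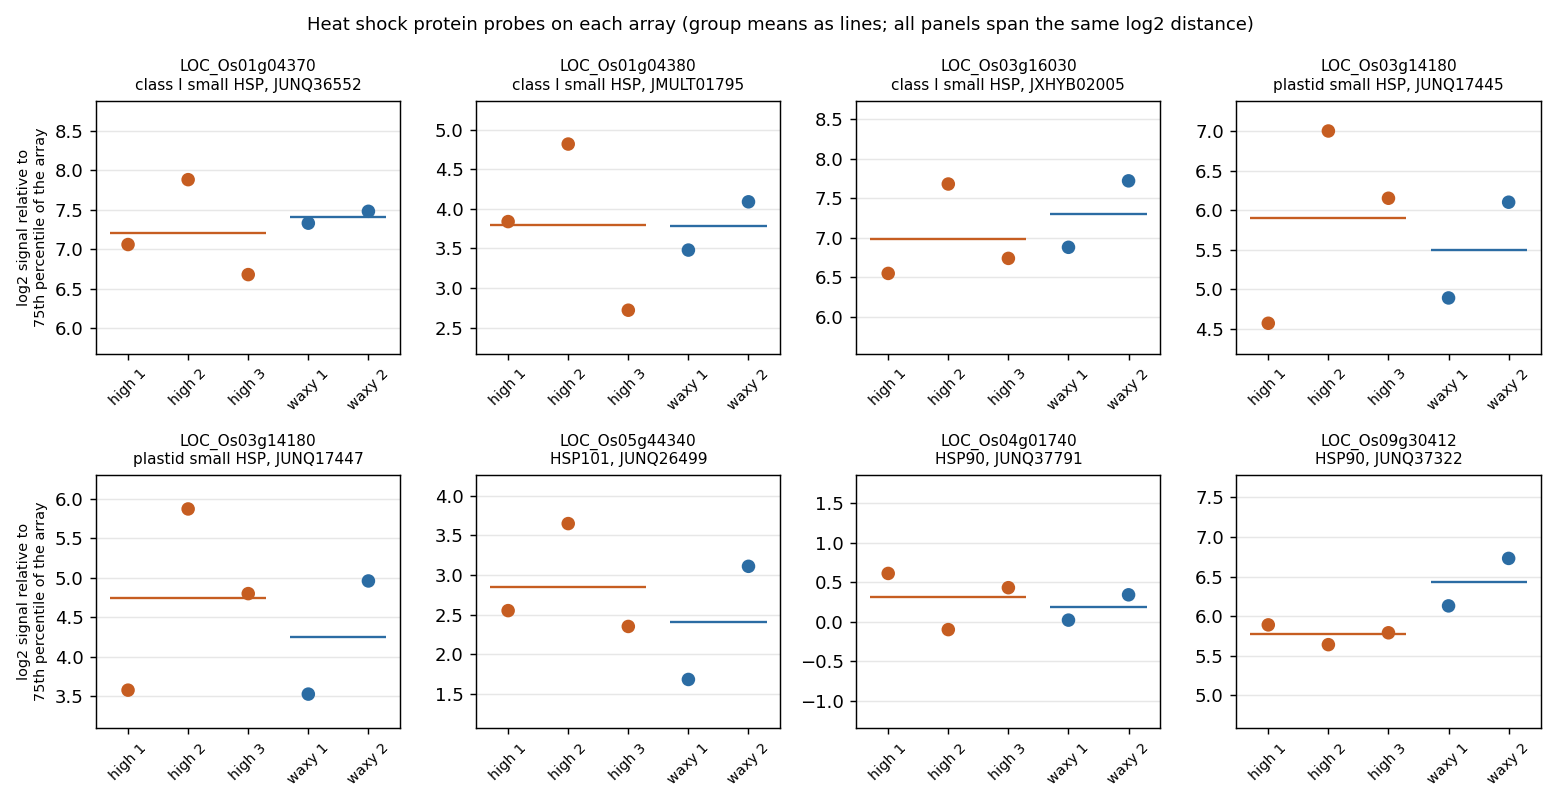
Each panel plots 1 probe, with the log2 signal relative to the array's 75th percentile for the 3 high-amylose arrays (orange) and the 2 waxy arrays (blue), and lines at the group means. High-amylose replicate 2 is the highest orange point for the small heat shock proteins and HSP101, and waxy replicate 2 lies above waxy replicate 1 in every panel.

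The class I small heat shock protein LOC_Os01g04370 on chromosome 1 had log2 signals of 7.06, 7.88 and 6.68 in the 3 high-amylose accessions, and of 7.33 and 7.48 in the waxy pair. In multiples of the array's 75th percentile these were 133, 235, 102, 161 and 179. Both waxy values lay inside the high-amylose range, which spanned 2.30-fold. The group difference was -0.20 (SE 0.47, 95% interval -1.27 to 0.86, limma adjusted p = 1.00), with 7.20 ± 0.61 in high-amylose seed (SD, n = 3) and 7.41 ± 0.11 in waxy seed (SD, n = 2). It became 0.06 without high-amylose replicate 3 and -0.28 without waxy replicate 1.

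Its neighbour by locus name, LOC_Os01g04380, belongs to the same class and varied more between accessions. The log2 signals were 3.84, 4.82 and 2.72 in the high-amylose accessions and 3.48 and 4.09 in the waxy accessions. High-amylose replicates 2 and 3 were thus the highest and the lowest of all 5 arrays at both loci of this pair, 4.31-fold apart here. The group means were 3.80 ± 1.05 (SD, n = 3) and 3.79 ± 0.43 (SD, n = 2), a difference of 0.01 (SE 0.61, interval -1.36 to 1.38, limma adjusted p = 1.00). A value so near 0 has no direction: it became -0.51 without high-amylose replicate 2, 0.55 without replicate 3 and -0.30 without waxy replicate 1.

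LOC_Os03g16030, the class I locus on chromosome 3, had log2 signals of 6.55, 7.68 and 6.74 in the high-amylose accessions and 6.88 and 7.72 in the waxy accessions. Here high-amylose replicate 2 and waxy replicate 2 stood together at the top, at 205 and 211 times their array's 75th percentile, while the other 3 arrays lay at 93.9 to 118 times. The difference between groups was -0.31 (SE 0.50, interval -1.44 to 0.82, limma adjusted p = 1.00). Without waxy replicate 2 it was 0.11, and without waxy replicate 1 it was -0.73.

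These class I genes are close relatives of each other, and 2 of their 3 probes, JMULT01795 for LOC_Os01g04380 and JXHYB02005 for LOC_Os03g16030, have names of other classes than the JUNQ probe of LOC_Os01g04370. The sources used here do not define these classes. Cross-hybridisation between the copies was not tested, so the signal of a single class I locus is uncertain.

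LOC_Os03g14180, the chloroplast small heat shock protein, spread widest among the 7 loci. Its probe JUNQ17445 read 4.57, 7.00 and 6.15 in the high-amylose accessions and 4.89 and 6.10 in the waxy accessions, a range of 5.39-fold, and 9.74% of all loci ranged as widely. High-amylose replicate 1 and waxy replicate 1 were the low arrays, at 23.7 and 29.6 times their 75th percentile, and the other 3 lay at 68.5 to 128 times.

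The second probe of this gene, JUNQ17447, gave the same split, with 3.58, 5.87 and 4.80 in the high-amylose accessions and 3.53 and 4.96 in the waxy accessions. Fitted for the locus, the group difference was 0.41 (SE 0.70, interval -1.17 to 1.99, limma adjusted p = 1.00), and for the second probe 0.51 (SE 0.70). The group means hide the split, since each group held a low array. Without high-amylose replicates 2 and 3, the arrays of 1 scan date, the locus stood at -0.93, with replicate 1 as the only high-amylose array. It was -0.14 without high-amylose replicate 2 alone, 1.08 without replicate 1, -0.19 without waxy replicate 1 and 1.01 without waxy replicate 2.

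HSP101 (LOC_Os05g44340, chromosome 5) had log2 signals of 2.55, 3.65 and 2.35 in the high-amylose accessions and 1.68 and 3.11 in the waxy accessions. In processed intensity, before scaling for array brightness, these were 1074, 1360, 451, 651 and 1834. High-amylose replicate 2 was the highest and waxy replicate 1 the lowest, 3.92-fold apart, with waxy replicate 2 second.

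The mean HSP101 signal was 2.85 ± 0.70 in high-amylose seed (SD, n = 3) and 2.40 ± 1.01 in waxy seed (SD, n = 2). The difference of 0.45, or 1.37-fold (SE 0.58, interval -0.85 to 1.75, limma adjusted p = 1.00), was smaller than the spread within either group. Single arrays decided it: leaving out the array labelled waxy replicate 1 gave -0.27, leaving out high-amylose replicate 2 gave 0.05, and leaving out waxy replicate 2 gave 1.17. Between the waxy accessions HSP101 differed 2.70-fold, and a gap of that size was found at 5.51% of all loci.

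The HSP90 loci followed another order. LOC_Os09g30412 on chromosome 9 read 5.89, 5.64 and 5.79 in the high-amylose accessions and 6.13 and 6.73 in the waxy accessions. The high-amylose accessions lay within 1.19-fold of each other, and all 3 lay below both waxy accessions. This was the 1 locus of the 7 whose groups did not overlap, against 13.5% of all loci in either direction and 5.03% with high-amylose seed lower.

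LOC_Os09g30412 was 1.58-fold lower in high-amylose seed, a log2 difference of -0.66 (SE 0.42, interval -1.60 to 0.28) that did not pass (limma adjusted p = 1.00). Group means were 5.77 ± 0.13 (SD, n = 3) and 6.43 ± 0.42 (SD, n = 2). The difference was -0.36 without waxy replicate 2 and -0.96 without waxy replicate 1. LOC_Os09g30418, a neighbouring HSP90 locus by name, stood at -0.78 (SE 0.47, limma adjusted p = 1.00). Its signals were 5.23, 4.62 and 4.36 in the high-amylose accessions and 5.12 and 5.91 in the waxy accessions, so its groups overlapped. HSP90 copies in this cluster are close relatives, and which of them a probe reads was not tested.

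LOC_Os04g01740, the HSP90 locus on chromosome 4, was the steadiest of the 7 loci. It read 0.61, -0.10 and 0.43 in the high-amylose accessions and 0.02 and 0.34 in the waxy accessions, a range of 1.64-fold, and 83.3% of all loci ranged as widely. The difference was 0.13 (SE 0.43, interval -0.83 to 1.10, limma adjusted p = 1.00). It was -0.03 without waxy replicate 1 and -0.01 without high-amylose replicate 1. Here, as for LOC_Os09g30412, high-amylose replicate 2 was the lowest array, the reverse of its place for HSP101 and most of the small heat shock proteins.

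**Figure D2:**
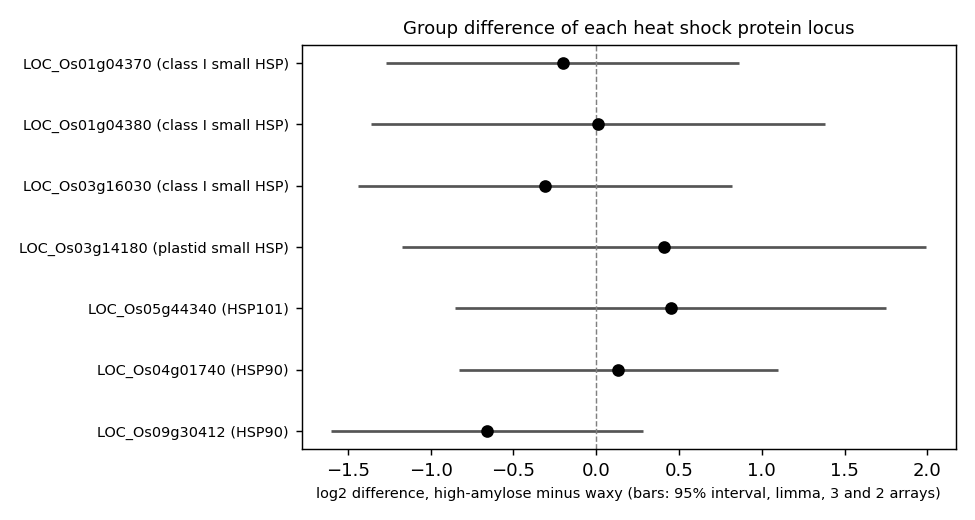
Points give the log2 difference, high-amylose minus waxy, of each locus, and bars its 95% interval from limma with 3 and 2 arrays. All 7 intervals include 0, from the HSP90 locus LOC_Os09g30412 at -0.66 to HSP101 at 0.45.

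The intervals also show how large a difference these 5 arrays leave possible. The narrowest, for LOC_Os09g30412 and LOC_Os04g01740, still reach -1.60 and 1.10, and the widest, for LOC_Os03g14180, reaches 1.99. The results therefore do not show that heat shock transcripts are equal in the groups.

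Set side by side by array, 2 relations between arrays of the same group recurred at 5 or more of the 7 loci, and the rest of the order varied. At 5 of the 7 loci, namely the 3 class I loci, LOC_Os03g14180 and HSP101, high-amylose replicate 2 was the highest of the 3 high-amylose arrays, which held at 26.4% of all loci. At both HSP90 loci that array was instead the lowest of all 5, and the share of all loci where this held was not counted. At all 7 loci waxy replicate 2 lay above waxy replicate 1, by 0.15 to 1.43 on the log2 scale, which held at 54.7% of all loci. High-amylose replicate 3, by contrast, was the lowest array for the chromosome 1 pair and lay 0.41 above the locus mean for LOC_Os03g14180, where high-amylose replicate 1 was lowest. The relations compare single arrays, have no replicate and were noticed in the values, so they are a description of these accessions only. Relative to each locus's own mean over the 5 arrays, the median locus stood at -0.15, 0.59 and -0.32 in the 3 high-amylose accessions, and at -0.24 and 0.36 in the waxy pair.

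How alike a pair of loci ran over the 5 arrays was measured as the root mean square difference of their log2 signals, each centred on its own mean. LOC_Os01g04370 and LOC_Os03g16030 were the closest pair at 0.29, followed by LOC_Os01g04370 with LOC_Os01g04380 at 0.35. LOC_Os03g14180 and LOC_Os04g01740 were the farthest at 1.04. HSP101 lay nearest to LOC_Os03g16030, at 0.44, and the HSP90 loci lay 0.43 from each other.

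By the same measure, the loci outside the set closest to HSP101 were LOC_Os05g08860 at 0.12, LOC_Os03g03500 at 0.13, LOC_Os01g10370 and LOC_Os03g25460 at 0.14 each and LOC_Os03g14910 at 0.15, against a median of 0.77 over 28916 loci. LOC_Os03g03500 read 2.20, 3.16 and 1.91 in the high-amylose accessions and 1.57 and 2.79 in the waxy accessions. Closest to the mean profile of the 3 class I loci were LOC_Os02g58540 and LOC_Os04g22520 at 0.03 each and LOC_Os06g24240, LOC_Os05g27440 and LOC_Os04g21050 at 0.04 each, against a median of 0.66. With 5 arrays and so many loci, close profiles are found for any locus, and neither the files nor the reference table name these loci.

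**Figure D3:**
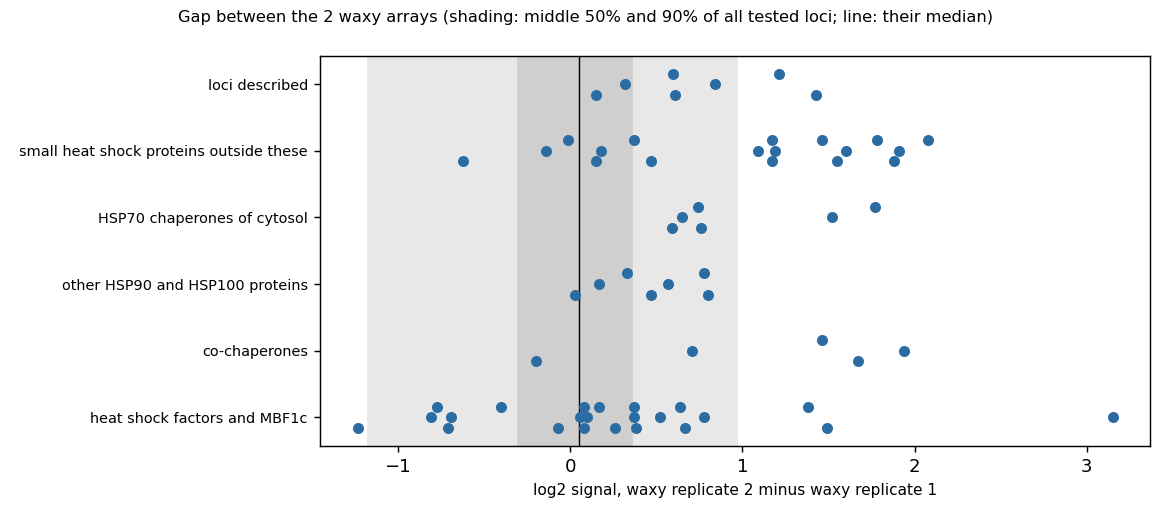
Each point is a locus, placed at its log2 signal on waxy replicate 2 minus that on waxy replicate 1, in rows for the 7 loci described and 5 lists of related genes. All 7 loci lie to the right of 0, and 21 of the 66 points lie at 1 or more, a place reached by 4.71% of all loci.

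Other genes of the heat shock response were taken from lists by function, and none of them passed the test between the groups. With limma and Benjamini-Hochberg adjustment 0 of 59 passed, and 0 had an unadjusted p under 0.05. Over all loci these shares were 0.0277% and 3.40%, so the counts do not set the related genes apart. Among 18 further small heat shock proteins 10 had a higher and 8 a lower mean in high-amylose seed, with a median log2 difference of 0.01. The member with the smallest p, LOC_Os02g54140, was at 0.77 (SE 0.61), followed by LOC_Os04g36750 at -0.54 (SE 0.66), LOC_Os02g48140 at 0.35 (SE 0.43) and LOC_Os03g15960 at -0.50 (SE 0.65). Without waxy replicate 1 these 4 stood at 0.18, -1.34, 0.35 and -1.38 and the list at -0.37, and without waxy replicate 2 the list stood at 0.37.

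Waxy replicate 2 exceeded waxy replicate 1 at 15 of these 18 loci, with a median gap of 1.17 on the log2 scale, against 0.61 for the 7 loci above and 0.05 over all loci. The 3 exceptions, named after their values were seen, were LOC_Os10g30162 at -0.62, LOC_Os01g04350 at -0.14 and LOC_Os02g48140 at -0.01. High-amylose replicate 2 was the highest of its group at 16 of 18. Over all loci these relations held at 54.7% for the waxy arrays and at 26.4% for high-amylose replicate 2. Some of the 18 loci were read by JMULT or JXHYB probes. Cross-hybridisation between copies was not tested, so the 18 may not be separate readings. LOC_Os03g15960, named beside the class I loci of chromosome 3, read 4.32, 5.87 and 4.54 in the high-amylose accessions and 4.52 and 6.29 in the waxy accessions. LOC_Os02g54140 read 3.46, 5.31 and 4.71 against 3.12 and 4.31. On high-amylose replicate 1 the median of the 18 loci deviated by -0.65 from the locus mean. With high-amylose replicates 2 and 3 left out, that replicate 1 is the only high-amylose array. All 18 were then lower on it than the waxy mean, at a median of -0.71, against -0.06 over all loci.

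HSP70 chaperones, which work with HSP101 on aggregated proteins, had a higher mean in high-amylose seed at 4 of 6 loci, with a median log2 difference of 0.22. LOC_Os05g38530 was at 0.53 (SE 0.54), LOC_Os03g60620 at 0.40 (SE 0.54), LOC_Os01g62290 at 0.33 (SE 0.43) and LOC_Os03g16860 at -0.15 (SE 0.47). All 6 lay higher on waxy replicate 2 than on waxy replicate 1, by 0.59 to 1.77, against 54.7% of all loci. LOC_Os03g60620 stood at 0.53 on waxy replicate 1 and 2.29 on waxy replicate 2. Without the array labelled waxy replicate 1 all 6 lay below 0, at a median of -0.33, and without waxy replicate 2 all 6 lay above, at 0.60.

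Among 7 other HSP90 and HSP100 proteins 3 had a higher and 4 a lower mean in high-amylose seed, with a median of -0.12. After LOC_Os09g30418, the smallest p belonged to LOC_Os12g32986, an organelle HSP90, at -0.71 (SE 0.60), to LOC_Os06g50300, the HSP90 of the endoplasmic reticulum, at -0.14 (SE 0.42) and to LOC_Os03g31300, an organelle relative of HSP101, at 0.14 (SE 0.42). None of the 7 was highest on high-amylose replicate 2 within its group, which held at 26.4% of all loci and at most of the small heat shock proteins. With so few loci, a count of 0 is not set apart from the share of all loci. All 7 were higher on waxy replicate 2 than on waxy replicate 1, by 0.03 to 0.80, against 54.7% of all loci. The difference between these families was not tested. Without waxy replicate 1 all 7 had a lower mean in high-amylose seed, at a median of -0.31, with LOC_Os03g31300 at -0.10, and without waxy replicate 2 the median was 0.02.

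The co-chaperones, proteins that work with HSP70 or HSP90, had a higher mean in high-amylose seed at 2 of 5 loci and a median of -0.30. LOC_Os03g44620, of the DnaJ family, was at -1.23 (SE 0.80) and LOC_Os12g07060 at -1.12 (SE 0.65). LOC_Os03g44620 read 5.37, 3.50 and 2.18 in the high-amylose accessions and 4.57 and 5.28 in the waxy accessions. LOC_Os12g07060 read 0.16, -1.67 and -2.16 against -0.00 and -0.21. At both loci high-amylose replicate 1 lay above both waxy arrays, and only high-amylose replicates 2 and 3, which share a scan date, lay below them. LOC_Os04g45480, the HOP protein that links HSP70 to HSP90, was at 0.70 (SE 0.60), and LOC_Os04g28420, a peptidyl-prolyl isomerase that binds HSP90, at -0.30 (SE 0.57). HOP read 0.65, 1.26 and 1.47 in the high-amylose accessions, -0.54 on waxy replicate 1 and 1.40 on waxy replicate 2, so waxy replicate 1 alone stood low. Leaving out waxy replicate 1 gave -0.28 for HOP, -1.02 for LOC_Os04g28420 and a list median of -1.02, with all 5 loci lower in high-amylose seed. Leaving out waxy replicate 2 gave a median of 0.43. With high-amylose replicates 2 and 3 left out, high-amylose replicate 1 alone gave 0.26, so the list has no settled direction.

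Heat shock factors, the transcription factors of the response, were counted together with the coactivator MBF1c. Of 23 loci 14 had a higher and 9 a lower mean in high-amylose seed, with a median of 0.08. LOC_Os04g48030, a class B heat shock factor, had the smallest p, at 0.82 (SE 0.78), followed by MBF1c (LOC_Os06g39240) at 0.44 (SE 0.44), LOC_Os08g36700 at -0.44 (SE 0.44) and LOC_Os09g35790 at 0.46 (SE 0.48). LOC_Os04g48030 read -0.60, -0.35 and -0.10 in the high-amylose accessions, -2.75 on waxy replicate 1 and 0.40 on waxy replicate 2, the widest waxy gap of all heat shock genes measured, at 3.15. Without waxy replicate 1 it stood at -0.75 and the list median at -0.03. Over all 59 related loci the direction turned without that array at 24. The share of all tested loci that turned was not counted, so this does not set the related loci apart. Of the 23 loci 16 were higher on waxy replicate 2 than on waxy replicate 1, with a median gap of 0.17, and 3 were highest on high-amylose replicate 2 within their group. The shares over all loci were 54.7% and 26.4%, with a median gap of 0.05.

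**Figure D4:**
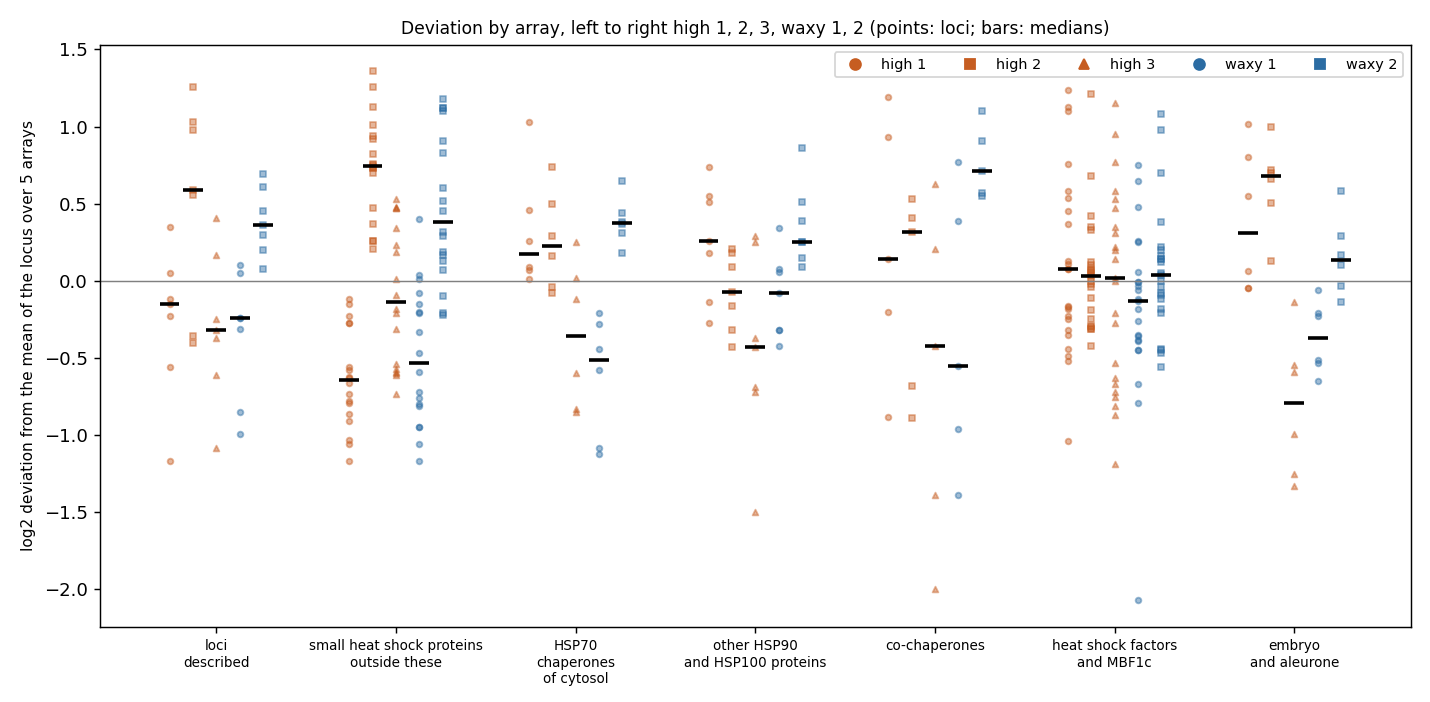
Points give each locus's log2 deviation from its own mean over the 5 arrays, grouped by gene list and, within a list, by array from high-amylose replicate 1 to waxy replicate 2; bars are medians. Small heat shock proteins stand highest on high-amylose replicate 2 (median 0.75) and waxy replicate 2 (0.38), heat shock factors have medians between -0.13 and 0.08, and embryo and aleurone markers are shown at the right.

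Small heat shock proteins and HSP101 are known to accumulate in embryos of maturing seed, so markers of embryo and aleurone were read beside them. The summed signal of the 6 markers, oleosin, LEA and peroxiredoxin genes, was 1349, 1716 and 758 times the 75th percentile for high-amylose replicates 1, 2 and 3, with 809 and 1164 times for the waxy replicates. The sum was thus highest on high-amylose replicate 2 and higher on waxy replicate 2 than on waxy replicate 1, as for HSP101. It was lowest on high-amylose replicate 3, where 2 of the 7 loci, LOC_Os01g04370 and LOC_Os01g04380, were lowest too. HSP101 was lowest on waxy replicate 1, and the remaining loci on high-amylose replicate 1 or 2. Single markers differed: LOC_Os03g49190 (7.32 against 7.18) and LOC_Os05g28210 (8.01 against 7.12) were higher on high-amylose replicate 1 than on replicate 2. The other markers were highest on high-amylose replicate 2. All 6 markers were higher on waxy replicate 2 than on waxy replicate 1, by 0.23 to 1.23 on the log2 scale, against 54.7% of all loci. On high-amylose replicate 1 the median marker deviated by 0.31, where HSP101 stood at -0.12, the median of the 7 loci at -0.15 and that of the 18 further small heat shock proteins at -0.65. Of the 7 loci, 2 stood above their own mean on that array.

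Other marker lists moved differently. The summed starchy endosperm signal was 8566 to 10870 times the 75th percentile in the high-amylose accessions and 9315 and 7757 times in the waxy accessions. Green outer layer markers summed to 0.661, 2.73 and 6.27 times in the high-amylose accessions and 0.799 and 0.951 times in the waxy accessions, with 4 of 6 not well above background on at least 1 waxy array and 4 of 6 on at least 1 high-amylose array. The part of tissue make-up in the heat shock values was not tested.

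**Figure D5:**
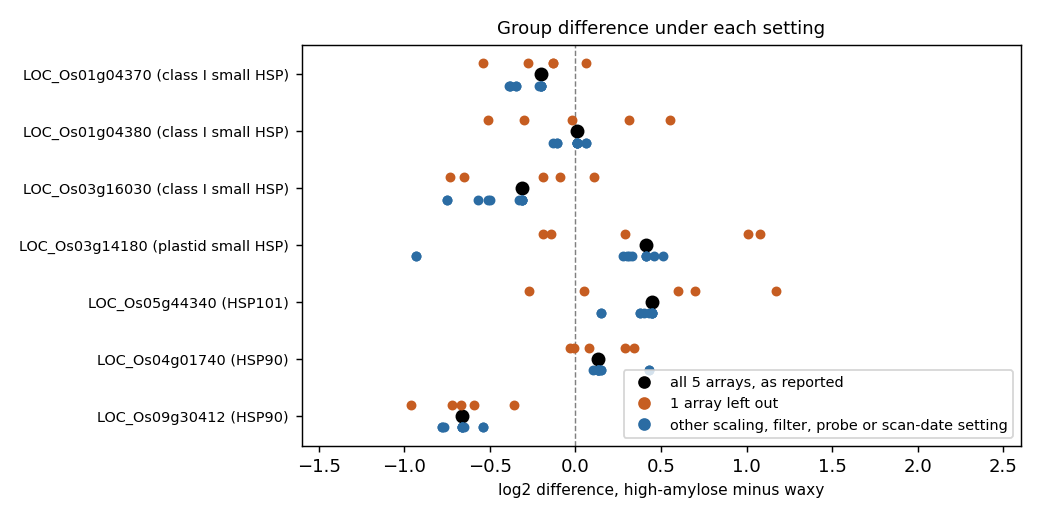
Each row shows the group difference of 1 locus on the log2 scale with all arrays (black), with 1 array left out (orange) and under other scalings, filters, probe rules and scan-date settings (blue). LOC_Os09g30412 stays below 0 throughout, between -0.96 and -0.36, and each of the other 6 loci has at least 1 point on the other side of 0.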

How the data were processed

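Per the file headers, each scanner file holds spot intensity from Agilent Feature Extraction 11.5.1.1 as the authors deposited it, with processed intensity subtracted for background and detrended within an array. The authors also deposited log2 values of these arrays as a table. The submitters' processing notes name limma, and how the table was normalized is not stated there. Its differences between arrays followed quantile-normalized log2 processed intensity (r of 0.9996 to 0.9997 across probes, slopes of 0.989 to 0.992). Its column medians were -0.0173, 0.0392, 0.0273, -0.0228 and 0.00403 in array order, and the baseline subtracted from each probe is unknown.

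Values are log2 processed intensity, from which the 75th percentile over the 61657 spots of each array was subtracted. Control spots were left out, outlier spots were dropped where a probe had others, and no spot was saturated. A probe was tested if well above background on at least 2 arrays, and a locus was represented by its tested probe of highest mean. The comparison of groups used limma 3.58.1 under R 4.3.3 (lmFit, eBayes, two-sided, no covariate) over 28923 loci, with Benjamini-Hochberg adjustment and a threshold of 0.05. The fit was tested on simulated data. An exact permutation test over the 10 splits of 5 arrays cannot reach 0.05, and the number of arrays limits precision (median SE 0.463). No array shared a probe value with another. Figures used matplotlib 3.10.9 and pandas 2.3.3 in Python 3.11.15.

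Replicate numbers follow deposit order and pair no arrays. The members and lists were chosen with earlier results of these data known. All members are named, and from each related list the 4 loci with the smallest p. Alternatives were other scalings, filters, probe rules, scan-date terms and leaving out each array. The reference table matched no locus name of the array, and no sequences were used here.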

Additional observations from a re-analysis of the deposited data

How the results depend on the processing

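No heat shock locus of the set passed under any of the 15 alternatives, whose smallest limma adjusted p for a member was 0.479, and the median difference of the members stayed between -0.51 and 0.29. The number of loci called over the whole array was 8 and became 4 with quantile scaling, 3 with the deposited log2 values, 21 when detection on all 5 arrays was required and 0 with normexp, with a term for the scan date of high-amylose replicates 2 and 3 or with that date left out, and 3 to 180 with 1 array left out. That term covers exactly the arrays of that date, so it gives the same differences as leaving the date out, by construction. Both set high-amylose replicate 1 alone against the waxy arrays. The further small heat shock proteins then had a median of -0.71, against 0.01 with all arrays, and LOC_Os03g14180 stood at -0.93. HSP70 chaperones ranged from -0.33 to 0.60 with 1 array left out. Co-chaperones ranged from -1.02 to 0.43 and other HSP90 and HSP100 proteins from -0.31 to 0.04 with 1 array left out, so both directions turned, although each median moved by less than the spread between arrays. Directions turned for LOC_Os01g04380 with quantile scaling and the deposited values (-0.11 each) and with normexp (-0.13). Leaving out 1 array gave ranges that cross 0 for LOC_Os01g04370 (-0.54 to 0.06), LOC_Os01g04380 (-0.51 to 0.55), LOC_Os03g16030 (-0.73 to 0.11), LOC_Os03g14180 (-0.19 to 1.08), HSP101 (-0.27 to 1.17) and LOC_Os04g01740 (-0.03 to 0.34). Without the array labelled waxy replicate 1 all 7 loci were lower in high-amylose seed, and without waxy replicate 2, 5 were higher and 2 lower. Each such fit leaves 1 waxy array, assumed to vary like the others. For the turned directions the cause was not tested. Under all 3 other scalings waxy replicate 2 still exceeded waxy replicate 1 at 7 of 7 loci, and high-amylose replicate 2 was still the highest of its group at 5 of 7, while for HSP70 chaperones the latter count was 1 of 6 against 3 of 6. For the further small heat shock proteins that count fell from 16 to 14 of 18 with the deposited values. Of the 7 other HSP90 and HSP100 proteins, 6 were higher on waxy replicate 2 than on waxy replicate 1 with normexp. No paired analysis was possible because each array is another accession and nothing pairs the high-amylose with the waxy accessions.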
